A study of Mus musculus with 9 samples.

Results

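Transcripts of tissue labelled as mouse hippocampus were compared between mice on a high-fat diet with added tryptophan and mice on the same diet alone. The comparison uses 6 of the 9 RNA-seq libraries of the series, chosen by their titles. The 3 Trp libraries come from mice whose high-fat diet was supplemented with tryptophan at 0.5% by weight, and the 3 HFD libraries from mice on the high-fat diet without the supplement, in both cases for 12 weeks. The IPA group of 3 libraries also ate the high-fat diet and was gavaged each day with indole-3-propionic acid (100 mg per kg body weight), a bacterial product of tryptophan. Its libraries entered the choice of genes tested, the scaling and the estimate of the spread. The IPA values are set beside those of some genes without a comparison. Every group ate the high-fat diet, and no group on ordinary chow was analysed here. The design text gives 3 mice per group. Strain, age and any genetic change are not named in the labels.

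Tryptophan is an essential amino acid that reaches the brain through exchangers of large neutral amino acids. There it is the starting point of serotonin synthesis and of the kynurenine pathway, while gut bacteria turn part of it into indoles that can bind the aryl hydrocarbon receptor and the pregnane X receptor. The hippocampus serves memory, holds a zone where neurons are born in adult life, and contains microglia, the resident immune cells of the brain, which clear debris and respond to diet and stress hormones.

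The 6 libraries held 40660032 to 50938746 counts each, with 24205 to 24947 genes detected, and correlations of log2 CPM across genes were 0.978 to 0.988 within groups and 0.977 to 0.986 between them. CPM are counts scaled to a common library size by TMM. The limit that 0 counts set was 0.0584 to 0.0718 CPM by library, for counting error only. The 4 Y-linked genes examined gave 0 counts and Xist gave 4766 to 7267 counts in every one of the 6 libraries. HFD 3 stood apart from the other libraries. On the first principal component of the 6 libraries, with 31% of the variance, HFD 3 lay at 43.56 and the others between -22.36 and 7.46. Trp 3 had the lowest mean of the choroid plexus genes, 0.57 log2 CPM, while Trp 1 had the highest, 3.97. Markers that define the hippocampus were present: the 27 measured dentate granule and CA field genes had a mean log2 CPM of 3.59 to 4.42 per library. Striatal genes were present as well, with a mean of 5.22 to 6.78 for 22 genes, but such means are not shares of tissue. The columns of HFD, IPA and Trp carry the codes WTB, HEB and HOB in the authors' table, which the labels pair with the samples without explaining them. Whether these columns hold the mice of the diet study was not tested, and directions below follow the labels.

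Added tryptophan went with a small set of changed transcripts. Microglial genes such as Ctss, Fcgr3 and C1qb rose, as did glucocorticoid-inducible genes such as Hif3a, Sult1a1 and Pnpla2 and the vascular genes Edn1 and Mfsd2a. The progenitor gene Nes, the newborn neuron genes Sox4, Sox11 and Marcksl1, the activity-induced Fos and Egr1, and the class I genes H2-K1 and H2-Q4 of antigen presentation fell. By the quasi-likelihood test of edgeR, adjusted after Benjamini and Hochberg, 64 of 18690 genes tested (0.342%) had an adjusted p under 0.05. Of these, 40 (0.214%) were higher and 24 (0.128%) lower in Trp, and these genes are called changed below. Over all genes tested the median log2 fold change was -0.002, 49.5% of the fold changes were above 0, and 2112 genes (11.3%) had an unadjusted p under 0.05. In all 64 called genes the 3 Trp libraries lay on one side of the 3 HFD libraries. The calls were made on these same values, so the separation of a called gene, here or below, is no further support. Over all genes tested, such separation was seen in 1506 genes with Trp above (8.06%) and 1388 with Trp below (7.43%). The smallest p of an exact two-sided permutation test with 3 libraries on each side is 0.1, so every call rests on the spread shared across genes.

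The number of calls depended on which libraries were fitted. With only the 6 Trp and HFD libraries, 8 genes were called, Ctss, Edn1, Fcgr3, Pnpla2 and Tekt4 higher and Gper1, H2-Q4 and the predicted gene Gm49395 lower. With all 9 libraries except HFD 3, 165 genes were called higher and 158 lower, and all 64 genes were among them. Leaving out another library gave 33 calls without HFD 1, 26 without HFD 2, 22 without Trp 1, 13 without Trp 2 and 81 without Trp 3. The split of higher to lower calls moved with the scale: limma on log2 FPKM with a pseudocount of 0.5 called 54 higher and 6 lower, on a scale where the median of all genes was 0.075. No called gene changed direction in any of these fits.

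**Figure D1:**
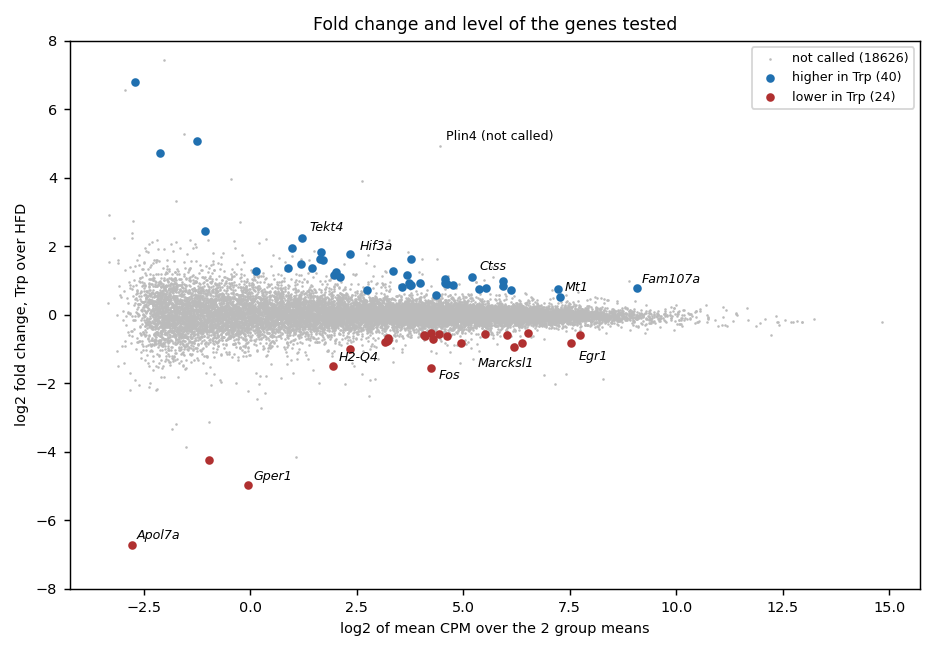
Each point is 1 of the 18690 genes tested, with the log2 of the mean CPM of the Trp and HFD groups on the horizontal axis and the log2 fold change of Trp over HFD on the vertical axis. The 40 genes called higher and the 24 called lower are coloured. Of the called genes, 3 higher and 3 lower ones, all of low level, lie beyond a log2 fold change of 4 in size, while Plin4 has a large fold change and was not called. Genes beyond the ends of the vertical axis are not drawn, among them Gm45062, which had a log2 fold change of 13.3 and was not called.

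Of the called genes, 61 are protein coding and 7 carry predicted symbols or are pseudogenes. Fold changes were mostly modest: 22 of the higher and 6 of the lower genes changed by more than 2-fold, and 36 by less. The calls were spread over the chromosomes, with 7 on chromosome 7, 4 on chromosome 17 and 0 on chromosome 19. In the GENCODE M21 annotation 17 of the 64 called genes have exons that overlap those of another gene. Most gene coordinates in the authors' table differ from this annotation, so the overlaps in the annotation they counted may be others. Without strand information their reads cannot be told apart. Of these overlapping neighbours that were tested, Ang beside Rnase4 (log2 fold change 1.03, adjusted p = 0.174) and Nat8f6 beside Nat8f5 (1.09, adjusted p = 0.117) had fold changes above 1 and were not called.

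Promoters of the called genes were read from RefSeq (GRCm38.p6), from 250 bases before to 50 bases after the start of transcription. 41 of the 64 genes matched, with 54 promoters, 39 of higher and 15 of lower genes. They were searched on both strands for 12 short motifs, and a match is a description of the letters only. The glucocorticoid receptor half-site AGAACA was in 12 of the 39 promoters of higher genes, in 1 of the 15 of lower genes (Nes), in 18.974% of all 32851 promoters of the table and in 13.249% of the 16658 promoters of genes tested. The higher genes holding it were C1qb, Ctss, Fam107a, Fbxw23, Gm11627, Ncf1, Pnpla7, Rnase4, Sult1a1, Tekt4 and Tlr13. Of the called glucocorticoid-induced genes described below, only Sult1a1 was among these holders. The ETS site GAGGAAGT, of the type bound by the myeloid factor PU.1, was in 3 promoters of higher genes (Ctss, Havcr2 and Sult1a1), in 0 of lower genes, in 3.202% of all promoters and in 2.773% of those of genes tested. The interferon response element, searched as GAAA and GAAA with 2 free bases between them, was in 3 promoters of higher genes (Ctss, Edn1 and Ncf1), in 1 of lower genes (Gbp3), in 3.443% of all and in 2.996% of those of genes tested. The AP-1 site TGANTCA was in 4 promoters of higher genes (of Havcr2, Prss23 and Usp50), in 0 of lower genes, in 7.808% of all and in 5.385% of those of genes tested. The full glucocorticoid element, AGAACA and TGTTCT with 3 free bases between them, was in 0 promoters of called genes and in 3 of all. The metal response element TGCGCNC was in 3 promoters of higher and 3 of lower genes and in 24.727% of those of genes tested. The E-box CACGTG was in 1 and 1 (9.227%), the dioxin response element TNGCGTG in 1 and 1 (7.186%), the CRE TGACGTCA in 2 and 0 (2.695%), and the core TGATGNAA of the amino acid response element in 0 and 2 (2.353%). The X-box motif GTTGCCAT (1.267%) and the EGR site GCGTGGGCG (1.087%) were in 0 promoters of called genes. 4 promoters are shown for the genes with the smallest p that hold 1 of these motifs, 1 gene per motif. Each is given 5′ to 3′ on the strand of the gene, with the motif, or its reverse complement, in capitals:
Ctss, PU.1-type ETS site, chr3:95526536-95526835, plus strand: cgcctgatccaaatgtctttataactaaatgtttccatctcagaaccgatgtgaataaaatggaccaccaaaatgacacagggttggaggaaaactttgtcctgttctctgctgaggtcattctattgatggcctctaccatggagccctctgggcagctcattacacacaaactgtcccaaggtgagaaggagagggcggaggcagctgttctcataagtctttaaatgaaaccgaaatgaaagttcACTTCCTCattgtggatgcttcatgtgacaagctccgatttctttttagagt
Tekt4, glucocorticoid half-site, chr17:25471340-25471639, plus strand: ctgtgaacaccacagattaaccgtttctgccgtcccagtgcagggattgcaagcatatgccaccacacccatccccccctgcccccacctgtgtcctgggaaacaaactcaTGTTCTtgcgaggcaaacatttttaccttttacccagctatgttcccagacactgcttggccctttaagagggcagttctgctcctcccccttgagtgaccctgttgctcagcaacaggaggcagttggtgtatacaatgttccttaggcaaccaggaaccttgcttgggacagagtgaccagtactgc
Edn1, interferon response element, chr13:42301226-42301525, plus strand: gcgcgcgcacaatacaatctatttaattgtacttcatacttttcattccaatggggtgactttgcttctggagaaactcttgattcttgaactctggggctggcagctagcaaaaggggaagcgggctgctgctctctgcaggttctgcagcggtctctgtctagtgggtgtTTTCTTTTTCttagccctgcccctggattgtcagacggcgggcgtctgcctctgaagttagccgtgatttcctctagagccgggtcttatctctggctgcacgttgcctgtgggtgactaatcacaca
Prss23, AP-1 site, 1 of its 7 promoters, chr7:89518155-89518454, minus strand: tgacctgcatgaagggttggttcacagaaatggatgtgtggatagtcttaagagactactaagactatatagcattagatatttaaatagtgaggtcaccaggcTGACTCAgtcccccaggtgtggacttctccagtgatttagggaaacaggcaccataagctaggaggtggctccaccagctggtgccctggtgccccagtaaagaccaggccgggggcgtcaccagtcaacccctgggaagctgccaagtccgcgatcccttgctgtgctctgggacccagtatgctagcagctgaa

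Most microglial genes had higher levels in Trp, and 7 of 38 were called. Ctss, which encodes the lysosomal protease cathepsin S, was measured at 21.4, 22.4 and 27.0 CPM in the HFD libraries and at 45.9, 48.4 and 57.5 CPM in the Trp libraries, in the order of their numbers here and below. Every Trp library was above every HFD library, and the IPA libraries lay at 27.0 to 31.7 CPM. The log2 fold change of Ctss was 1.10 (SE 0.12, adjusted p = 0.0049), and it was called with each of the 6 libraries left out in turn. Fcgr3, a low-affinity receptor for IgG, stood at 9.66, 8.98 and 8.74 CPM in HFD and at 16.5, 17.4 and 17.8 CPM in Trp, again without overlap (0.92, SE 0.10, adjusted p = 0.0049). Havcr2, the checkpoint receptor TIM-3, was at 1.65, 1.37 and 1.59 CPM in HFD and at 4.23, 4.38 and 3.22 CPM in Trp (1.36, SE 0.19, adjusted p = 0.011). Selplg, the selectin ligand PSGL-1, was at 9.61 to 12.2 CPM in HFD and 19.3 to 22.8 CPM in Trp. Among the complement genes C1qa and C1qb, chains of the initiating protein C1q, rose by 0.74 and 0.78. Their partner chain C1qc had a log2 fold change of 0.59 and an adjusted p of 0.052, just outside the threshold, as had Tmem119, a surface marker of resident microglia (0.60, adjusted p = 0.052).

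Of the 38 microglia genes, all of which were tested, 36 had fold changes above 0 and 7 were called, all higher, against 0.214% of all genes. The median log2 fold change was 0.60. Their summed level was 536 to 588 CPM in the HFD libraries and 733 to 930 CPM in the Trp libraries, and 25 members separated the groups, against 8.06% of all genes. By role, 3 of 22 surface receptors were called (median 0.67), 2 of 6 lysosomal genes (0.39), 2 of 4 complement genes (0.67) and 0 of 6 transcription factors (0.30). In bulk tissue, more cells of a type and more RNA per cell cannot be told apart, nor can fewer cells and less RNA. Without HFD 3, 11 members were called, and without HFD 2 or Trp 2, 3. Genes that microglia induce on activation were not called: 0 of 20 measured activation markers and cytokines passed, and their median was 0.13. With 0.342% of all genes called, a list of this size would mostly hold no call. Beside the list, Crybb1, a beta-crystallin, was at 2.63, 2.40 and 2.19 CPM in HFD and at 3.76, 6.56 and 6.79 CPM in Trp (1.24, SE 0.23, adjusted p = 0.0415). Tlr13, an endosomal sensor of bacterial ribosomal RNA, rose by 1.36 (SE 0.23, adjusted p = 0.0271). Ncf1, the p47-phox subunit of the phagocyte oxidase, rose by 0.72 (adjusted p = 0.0486) and Mertk, a receptor for the engulfment of dying cells, by 0.87 (SE 0.11, adjusted p = 0.00568).

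**Figure D2:**
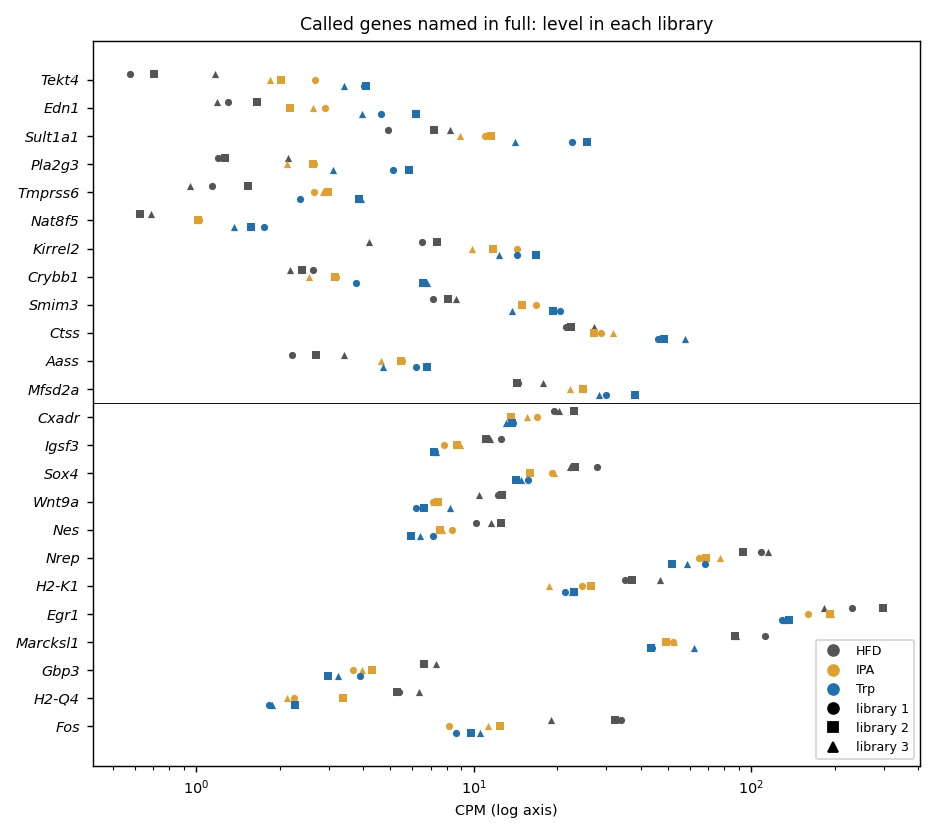
Levels in CPM (horizontal log axis) of the 12 higher (top) and 12 lower (bottom) called genes named in full, with 1 marker per library, coloured by group and shaped by library number. In every row the 3 Trp markers lie on one side of the 3 HFD markers, as for Ctss with 45.9 to 57.5 CPM in Trp and 21.4 to 27.0 CPM in HFD.

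Genes that glucocorticoids are known to induce were the other group with 7 calls, among 33 tested, against 0.214% of all genes called higher. Sult1a1, a phenol sulfotransferase, was measured at 4.93, 7.18 and 8.22 CPM in HFD and at 22.5, 25.6 and 14.1 CPM in Trp. The groups did not overlap, and Trp 3 was the lowest Trp library. The log2 fold change was 1.61 (SE 0.24, adjusted p = 0.0225), while the overlapping gene Sgf29 had 0.36 (adjusted p = 0.469). Hif3a, a subunit related to the hypoxia-inducible factors, was at 1.73 to 3.09 CPM in HFD and at 8.67, 9.62 and 5.28 CPM in Trp (1.77, SE 0.25, adjusted p = 0.012). Pnpla2, the lipase ATGL that starts the breakdown of stored fat, was at 16.3, 16.7 and 18.7 CPM in HFD and at 33.3, 34.2 and 28.7 CPM in Trp (0.90, SE 0.10, adjusted p = 0.0051). Htra1, a secreted serine protease, rose by 0.74 (SE 0.09, adjusted p = 0.00568), from 106 to 117 CPM in HFD to 169 to 208 CPM in Trp. Mt1, a metal-binding metallothionein, rose by 0.52 (SE 0.10, adjusted p = 0.0415). Edn1 and Mfsd2a, described with the vessel genes, complete the 7.

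Of the 33 glucocorticoid-induced genes, 26 had fold changes above 0 (median 0.64), and 17 separated the groups with Trp above, against 49.5% and 8.06% of all genes. The largest fold change was not called. Plin4, a coat protein of lipid droplets, was at 0.728, 0.888 and 2.64 CPM in HFD, at 14.5 to 26.9 CPM in IPA and at 54.8, 55.5 and 18.0 CPM in Trp (4.94, SE 0.70, adjusted p = 0.0638). Xdh, xanthine dehydrogenase, was at 2.51, 4.16 and 3.61 CPM in HFD and at 15.2, 16.95 and 6.85 CPM in Trp (1.92, adjusted p = 0.103). In both genes the groups did not overlap, and Trp 3 was nearest to HFD. This order was common in the list: Trp 3 was the lowest Trp library in 28 of 33 genes and HFD 3 the highest HFD library in 25 of 33, against 36.6% and 39.6% of all genes tested. In the microglia genes the order was another, with Trp 3 the highest Trp library in 32 of 38, against 37.7% of all genes. Without HFD 3, 13 members were called, without Trp 3, 11, and without HFD 2, Trp 1 or Trp 2, 4.

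**Figure D3:**
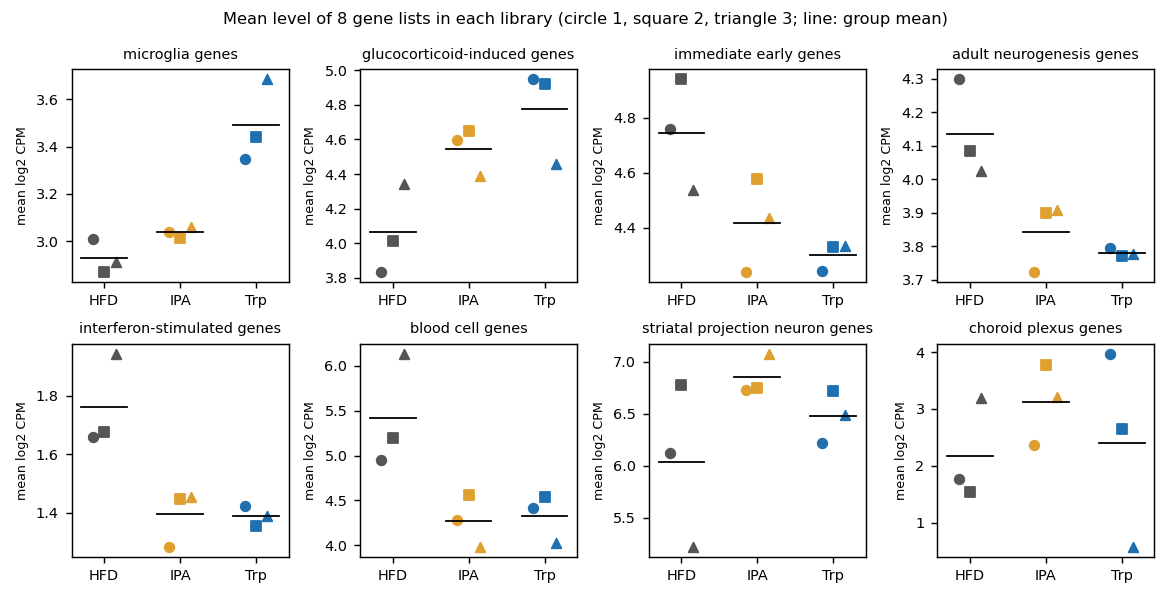
Mean log2 CPM of the tested members of 8 gene lists in each library, with a line at each group mean and a separate vertical scale per panel. The microglia mean is 3.35 to 3.69 in Trp and 2.87 to 3.01 in HFD with Trp 3 highest, the glucocorticoid mean is lowest for Trp 3 within its group, and the striatal, blood and choroid plexus panels show the libraries that stand apart.

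Among genes of blood vessels 3 were called. Edn1 and Gper1 were 2 of 35 vasoactive and angiogenic genes tested, against 0.342% of all genes called. Of these 35, 12 had fold changes above 0 (median -0.115), against 49.5% of all genes. Edn1, the vasoconstrictor peptide endothelin-1, was measured at 1.31, 1.65 and 1.19 CPM in HFD, at 2.17 to 2.90 CPM in IPA and at 4.62, 6.20 and 3.97 CPM in Trp. The lowest Trp library was above the highest HFD library (log2 fold change 1.83, SE 0.23, adjusted p = 0.00568), and the call held with each of the 6 libraries left out. Mfsd2a, which carries lysolipids with omega-3 fatty acids across the blood-brain barrier, was at 14.4, 14.3 and 17.8 CPM in HFD and at 29.8, 38.2 and 28.2 CPM in Trp. It did not overlap either (1.05, SE 0.13, adjusted p = 0.00568). Gper1, a membrane receptor for oestrogen, fell and is described below. Other vessel genes were not called, and with 0.342% of all genes called, lists of this size would mostly hold no call. Of 26 endothelial markers 0 were called (median -0.28), of 17 mural cell markers 0 (median -0.15), of 26 tight and adherens junction genes 0 (median 0.04), and of 25 barrier transport genes only Mfsd2a (median -0.10). Of the 25 barrier genes, 9 separated the groups with Trp below and 3 with Trp above, against 7.43% and 8.06% of all genes. Without HFD 3, 2 of the barrier genes were called higher and 1 lower. Slc16a1, the lactate and ketone transporter MCT1, was at 42.1, 43.0 and 68.8 CPM in HFD and 28.9, 25.6 and 30.1 CPM in Trp (log2 fold change -0.86, adjusted p = 0.0669), so it did not pass although the groups did not overlap. Cldn5 (claudin-5), Ocln (occludin) and Tjp1 (ZO-1) had log2 fold changes of -0.34, -0.32 and -0.10 with adjusted p of 0.559, 0.573 and 0.801.

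The higher genes outside these groups had varied roles. Tekt4, a tektin of cilia and flagella, had the largest fold change among the higher genes named in full, with 0.578, 0.706 and 1.16 CPM in HFD and 4.03, 4.09 and 3.41 CPM in Trp (2.24, SE 0.27, adjusted p = 0.00568). It was called with each library left out. It was the 1 call among 29 tested genes of ependymal cells and motile cilia (list median 0.28), against 0.214% of all genes called higher. Dnah12, an axonemal dynein, had 1.55 (adjusted p = 0.288) and Foxj1, the regulator of motile cilia, 0.53 (adjusted p = 0.467). Pla2g3, a secreted phospholipase A2, was at 1.20, 1.27 and 2.14 CPM in HFD and at 5.12, 5.84 and 3.10 CPM in Trp (1.61, SE 0.28, adjusted p = 0.0298). Tmprss6, the protease matriptase-2 that represses the iron hormone hepcidin, was at 1.13, 1.53 and 0.950 CPM in HFD and at 2.36, 3.85 and 3.91 CPM in Trp (1.48, SE 0.25, adjusted p = 0.0271). Neither gene overlapped between groups. Aass, which catalyses the first steps of lysine breakdown, was at 2.21, 2.70 and 3.42 CPM in HFD and at 6.20, 6.80 and 4.72 CPM in Trp (1.09, SE 0.20, adjusted p = 0.0415). Nat8f5, an acetyltransferase gene, was at 0.621, 0.626 and 0.689 CPM in HFD and at 1.75, 1.58 and 1.37 CPM in Trp (1.28, SE 0.24, adjusted p = 0.0453), and the same-strand neighbour Nat8f6 shares exons with it.

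Kirrel2, an adhesion protein of the nephrin family, was measured at 6.49, 7.37 and 4.20 CPM in HFD and at 14.3, 16.8 and 12.4 CPM in Trp (log2 fold change 1.26, SE 0.21, adjusted p = 0.0271). Smim3, a small membrane protein, was at 7.11, 8.09 and 8.60 CPM in HFD and at 20.5, 19.3 and 13.7 CPM in Trp (1.17, SE 0.15, adjusted p = 0.00666). Both genes separated the groups, and, of the fits that left out 1 library, the call of Smim3 ended in that without Trp 2 (1.11, adjusted p = 0.051). The remaining higher genes with established symbols rose by 0.58 to 2.44. They were Usp50 (2.44), Slc4a11, a solute carrier (1.95), Tppp3, a tubulin-binding protein (0.98), Prss23, a serine protease (0.91), Rnase4, a ribonuclease (0.86), Fzd2, a Wnt receptor (0.85), Pnpla7, a lysophospholipase (0.79), Fam107a, an actin-binding protein induced by stress (0.78), Daam2, a formin of Wnt signalling (0.73), and Cdh18, a cadherin (0.58). Tppp3 did not overlap between 37.1 to 48.2 CPM in HFD and 67.3 to 89.1 CPM in Trp, nor did Fam107a between 367 to 431 and 545 to 748 CPM. Among the predicted genes, Gm43089 gave 0 counts in each HFD library and 18, 12 and 14 in Trp, at least 14.2-fold higher against a floor of 3 counts over the group. With 5, 8 and 8 counts in IPA, it passed the filter on low counts only through Trp, the group where it is high. The others called were Fbxw23 (a pseudogene), Gm45861, Gm21984 and Gm11627, which were higher, and 2810459M11Rik, which was lower with Gm49395. Gm45861, with 8, 12 and 7 counts in IPA, also needed the Trp libraries to pass the filter.

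The largest falls were in genes of low level. Gper1 gave 81, 94 and 84 counts in HFD 1 to 3, 32, 36 and 25 counts in IPA 1 to 3, and 0, 4 and 4 counts in Trp 1 to 3. In CPM these were 1.73, 1.90 and 2.00 in HFD, 0.801, 0.888 and 0.591 in IPA, and 0, 0.0958 and 0.0806 in Trp, so that the 3 groups did not overlap. The log2 fold change of Trp over HFD was -4.98 (SE 0.52, adjusted p = 0.0049), and the call held with each of the 6 libraries left out. The gene lies on chromosome 5. The labels mention no genetic change, but the unexplained codes WTB, HEB and HOB could be read as genotype codes, and the counts step down in that order. Whether this is a difference between diets therefore depends on the labels being those of these columns. Apol7a, of the apolipoprotein L family, gave 16, 12 and 12 counts in HFD, 3, 4 and 7 in IPA and 0 in each Trp library. Against a floor of 3 counts over the group it was at least 13.8-fold lower in Trp, and its adjusted p was 0.0271. Apol7a passed the filter on low counts only through HFD, the group where it is high. The predicted gene Gm49395, whose exons overlap those of Itga1 and Pelo, fell by 4.25 (SE 0.55, adjusted p = 0.00666). With 5, 4 and 9 counts in IPA and 4, 2 and 1 in Trp, Gm49395 also passed the filter only through HFD.

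Of the genes that active neurons induce within minutes, Fos and Egr1 fell. Fos, which pairs with Jun proteins to form AP-1, was measured at 33.9, 32.2 and 19.0 CPM in HFD, at 8.11 to 12.5 CPM in IPA and at 8.63, 9.74 and 10.5 CPM in Trp. HFD 3 was the lowest HFD library and still above all Trp libraries (log2 fold change -1.56, SE 0.22, adjusted p = 0.0207). Egr1, a zinc finger factor of the same response, was at 231, 298 and 182 CPM in HFD and at 129, 137 and 132 CPM in Trp, without overlap (-0.84, SE 0.15, adjusted p = 0.0415). Of 39 immediate early genes tested, 33 had fold changes below 0 and these 2 were called, against 50.5% and 0.128% of all genes. The median was -0.42, with -0.69 over 19 transcription factors and -0.30 over 20 effectors, 0 of which were called. Egr4 (-1.05, adjusted p = 0.196) and Nr4a3 (-1.29, adjusted p = 0.2) were not called, and Bdnf, a neurotrophin gene, had -0.31 (adjusted p = 0.481). Inhba, of the same list, had a fold change above 0 (0.49, adjusted p = 0.217). The number of calls was 6 without HFD 3, 2 without HFD 1, 1 without Trp 3 and 0 without HFD 2, Trp 1 or Trp 2. It was 0 with only the 6 libraries compared. Without HFD 1, Nr4a3 was called (adjusted p = 0.0203), while Fos and Egr1 were not (adjusted p = 0.0559 and 0.137).

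Among genes of neural progenitors and newborn neurons 5 fell. Nes, the progenitor filament nestin, was measured at 10.2, 12.5 and 11.5 CPM in HFD and at 7.15, 5.96 and 6.39 CPM in Trp (log2 fold change -0.81, SE 0.13, adjusted p = 0.0225). Sox4, a transcription factor of newborn neurons, was at 27.9, 23.2 and 22.2 CPM in HFD and at 15.6, 14.2 and 14.8 CPM in Trp (-0.72, SE 0.12, adjusted p = 0.0246). In neither gene did the groups overlap. Marcksl1, an actin regulator at the membrane, was at 112, 87.2 and 87.7 CPM in HFD and at 43.7, 43.5 and 62.2 CPM in Trp (-0.94, SE 0.14, adjusted p = 0.0207). Its relative Marcks, a substrate of protein kinase C, was at 245, 265 and 261 CPM in HFD and at 157, 157 and 192 CPM in Trp (-0.61, SE 0.11, adjusted p = 0.0451). Sox11, the partner of Sox4, and Dpysl3, a growth cone protein, fell by 0.55 and 0.57. Nrep, a neuronal protein linked to regeneration, was at 108, 93.2 and 115 CPM in HFD and at 67.9, 51.9 and 58.7 CPM in Trp (-0.83, SE 0.12, adjusted p = 0.011). Trp 3 was the highest Trp library for Marcksl1 and Marcks, and all of these genes separated the groups.

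Of the 35 neurogenesis genes tested, 31 had fold changes below 0 (median -0.33) and 5 were called lower, 1 of 13 progenitor genes and 4 of 22 newborn neuron genes, against 50.5% and 0.128% of all genes. Neurod1, a factor of granule neuron differentiation, had -1.06 (adjusted p = 0.094) and was not called. Of 36 genes of axon growth and the cytoskeleton, 30 were below 0 (median -0.11) and 3 were called, Marcks, Marcksl1 and Dpysl3, with Marcksl1 and Dpysl3 on both lists, against the same shares of all genes. Of 27 markers of mature dentate granule and CA field neurons, 0 were called and 18 were below 0 (median -0.06), against 0.342% and 50.5% of all genes. The calls of the neurogenesis list were 0 without Trp 1 or Trp 2, 2 without HFD 1, HFD 2 or Trp 3 and 6 without HFD 3, and they were 0 with only the 6 libraries compared.

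Among antigen presentation and interferon genes 3 fell. H2-Q4, a class Ib heavy chain gene, was measured at 5.37, 5.31 and 6.37 CPM in HFD, 2.13 to 3.38 CPM in IPA and 1.83, 2.27 and 1.87 CPM in Trp, without overlap of Trp and HFD (log2 fold change -1.51, SE 0.21, adjusted p = 0.011). H2-K1, a classical class I heavy chain gene, was at 35.1, 37.2 and 46.7 CPM in HFD and at 21.4, 23.01 and 22.6 CPM in Trp (-0.83, SE 0.14, adjusted p = 0.0271). Both lie on chromosome 17, and reads of this family may be shared between near-identical copies. Of 23 genes of class I chains and peptide loading these 2 were called, against 0.128% of all genes, and 15 were below 0 (median -0.15), against 50.5%. Members separated the groups both ways, 6 with Trp below and 4 with Trp above, and H2-D1 (-0.39, adjusted p = 0.21) and H2-T23 (0.85, adjusted p = 0.3) had opposite signs. Gbp3, an interferon-induced GTPase, was at 6.55, 6.64 and 7.32 CPM in HFD and at 3.88, 2.99 and 3.25 CPM in Trp, without overlap (-1.02, SE 0.16, adjusted p = 0.0206). It was the 1 called gene of 33 interferon-stimulated genes, 26 of which were below 0, against 0.128% and 50.5% of all genes. Of the 33, 12 separated the groups with Trp below and 0 with Trp above, against 7.43% and 8.06% of all genes. The list median of -0.37 was -0.12 without HFD 3, the library with the highest mean of the list. Gbp2, its close relative, had -1.05 (adjusted p = 0.0752) and was not called.

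The remaining lower genes were of adhesion, signalling and the clock. Wnt9a, a Wnt ligand, was measured at 12.2, 12.7 and 10.4 CPM in HFD and at 6.21, 6.61 and 8.18 CPM in Trp (log2 fold change -0.75, SE 0.14, adjusted p = 0.0429). Igsf3, an immunoglobulin superfamily membrane protein, was at 12.5, 11.1 and 11.4 CPM in HFD and at 7.27, 7.18 and 7.34 CPM in Trp (-0.69, SE 0.12, adjusted p = 0.0271). Cxadr, an adhesion protein and adenovirus receptor, was at 19.4, 22.98 and 20.3 CPM in HFD and at 13.9, 13.7 and 13.02 CPM in Trp (-0.63, SE 0.11, adjusted p = 0.0362). None of these overlapped between Trp and HFD. The adhesion gene Nectin1 (-0.62), the potassium channel subunit gene Kcnb2 (-0.59), Pamr1 (-0.56) and the kinase gene Map4k4 (-0.55) were also lower. Nr1d1, the clock repressor REV-ERB alpha, was at 86.0, 81.9 and 67.3 CPM in HFD and at 49.8, 49.8 and 55.0 CPM in Trp (-0.61, SE 0.11, adjusted p = 0.0378). It was the 1 call among 19 clock genes, whose median was 0.00, against 0.128% of all genes called lower. The exons of Nr1d1 overlap those of Thra on the other strand (-0.25, adjusted p = 0.422). The clock output gene Dbp had -0.47 (adjusted p = 0.173).

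Genes of tryptophan handling itself were not called in the edgeR fit of all 9 libraries, against 0.342% of all genes called. Of 17 tested enzymes of the serotonin, melatonin and kynurenine branches 0 were called and 11 were above 0 (median 0.24). Of these enzymes, 4 separated the groups with Trp above and 0 with Trp below, against 8.06% and 7.43% of all genes. DESeq2 called 1 of 13 enzymes higher. Tph2, which starts serotonin synthesis in neurons, stood at 0.35 on the log2 scale (adjusted p = 0.739). Ido1 and Tdo2, which open the kynurenine pathway, had 0.19 (adjusted p = 0.887) and -0.83 (adjusted p = 0.604), and Kyat3, a kynurenine aminotransferase, had 0.57 (adjusted p = 0.19). Of 17 transporters of large neutral and aromatic amino acids 0 were called (median -0.01). Of these transporters, 3 separated the groups with Trp above and 1 with Trp below, and 1 was called higher without HFD 3. Slc7a5, the exchanger LAT1 of the barrier, had -0.15 (95% interval -0.33 to 0.04, adjusted p = 0.558). Of 12 serotonin receptor and transporter genes 0 were called (median 0.06), and of 25 genes of the cellular response to amino acid supply 0 (median 0.11). Of the 25 response genes, 6 separated the groups with Trp above and 2 with Trp below, and 1 was called higher without HFD 3. Of 25 enzymes of amino acid breakdown 21 were above 0 (median 0.13), with Aass called and Prodh, of proline breakdown, just outside the threshold (0.59, adjusted p = 0.052).

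Receptors and targets of fatty acids and indoles were not called either. Ffar3, a receptor for short-chain fatty acids, gave 16, 19 and 0 counts in HFD and 0, 3 and 6 counts in Trp, so the groups overlapped. The fold change was -1.91 on the log2 scale (95% interval -4.26 to 0.44, adjusted p = 0.551), too wide an interval for a difference to be detected at these counts. Too few counts for a test were found for Ffar2 (0 to 3) and for Nr1i2, the pregnane X receptor (0). Ahr, which encodes the aryl hydrocarbon receptor, had -0.20 (adjusted p = 0.626). Of 12 receptor genes 0 were called (median 0.15), and of 12 target genes of the aryl hydrocarbon and pregnane X receptors 0 (median 0.14), against 0.342% of all genes. Of the receptor genes, 5 separated the groups with Trp above and 0 with Trp below, against 8.06% and 7.43% of all genes. The highest fold change among them was that of Gpr84, with 11, 13 and 9 counts in HFD and 27, 29 and 36 in Trp (1.44, adjusted p = 0.157). Of the target genes, 2 separated with Trp above and 0 with Trp below.

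**Figure D4:**
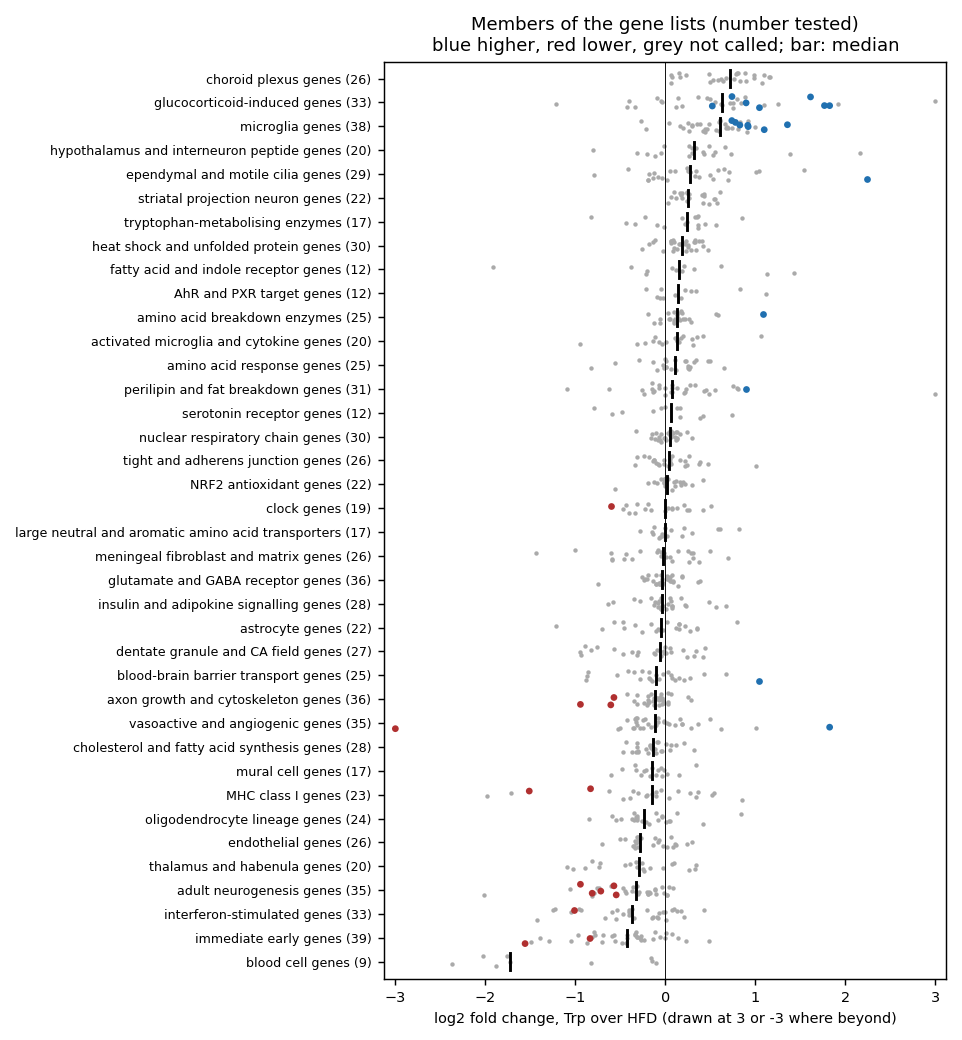
Log2 fold change of Trp over HFD (horizontal axis, values beyond 3 drawn at the edge) for each tested member of the 38 gene lists, with the number tested in brackets, called genes in colour and a bar at each list's median. Called genes gather in the microglia and glucocorticoid lists on the higher side, with 7 each, and in the neurogenesis list on the lower side, with 5, while the choroid plexus and blood lists have the outermost medians and no call.

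Other pathways held few or no calls, against 0.342% of all genes called. Of 31 genes of lipid droplets and fat breakdown Pnpla2 was called (median 0.08), and Ucp2, a mitochondrial carrier, had 0.79 (adjusted p = 0.0664). Of 30 heat shock and unfolded protein genes 0 were called, although 25 were above 0 (median 0.19), and of 28 genes of cholesterol and fatty acid synthesis 0, with 22 below 0 (median -0.14). The lists of glutamate and GABA receptors (36 genes), insulin and adipokine signalling (28), NRF2 antioxidant genes (22) and the nuclear respiratory chain (30) had 0 calls and medians from -0.04 to 0.05. Astrocyte genes (22, median -0.04) and oligodendrocyte genes (24, median -0.24) had 0 calls. Gfap, the astrocyte filament protein, had -0.47 (adjusted p = 0.6), and the oligodendrocyte median was 0.03 without HFD 3.

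Markers of neighbouring tissue and blood had 0 calls in the edgeR fit of all 9 libraries, against 0.342% of all genes. Their levels varied within the groups. All 22 striatal genes were above 0 (median 0.26), with summed levels of 1787 to 5260 CPM in HFD and 3455 to 4989 CPM in Trp, and the median was 0.05 without HFD 3. All 26 choroid plexus genes were above 0 (median 0.72, and 1.496 without HFD 3). Without Trp 1 the direction turned, with 6 of 26 above 0 and a median of -0.40. Their summed levels were 426 to 1343 CPM in HFD and 328 to 2320 CPM in Trp. Ttr, the thyroxine carrier transthyretin, had 0.98 (adjusted p = 0.849), and -0.11 without Trp 1. All 9 blood cell genes tested were below 0 (median -1.72, and -0.95 without HFD 3), with summed levels of 990, 1142 and 2610 CPM in HFD 1 to 3 and of 712, 726 and 640 CPM in Trp 1 to 3. In 5 of the 9 blood cell genes all Trp libraries lay below all HFD libraries, against 7.43% of all genes. Of the 9, 2 were called lower without HFD 3, 1 without HFD 1 and 3 by DESeq2. DESeq2 also called 1 choroid plexus gene higher and 1 meningeal and matrix gene lower. Of the neutrophil markers of the list, Camp and Retnlg were at 0 in each of the 6 libraries compared. S100a8, S100a9, Ngp and Ltf had counts in at least 1. Of 20 thalamus and habenula genes 15 were below 0 (median -0.29, and 0.34 without HFD 3), of 20 hypothalamic and interneuron peptide genes 14 were above 0 (median 0.32), and of 26 meningeal and matrix genes 12 (median -0.03). The part of these tissues in the calls above was not tested.

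Of the 64 called genes, 10 were called with each of the 6 libraries left out in turn: Tekt4, Edn1, Ctss, Mfsd2a, Selplg, Fcgr3, Pnpla2, Mertk, Htra1 and Gper1. Another 5 were called in 5 of the 6 fits: Smim3, Prss23, Gm49395, H2-Q4 and Nrep. By contrast, 22 were called in only 2 fits and 13 in only 1. All 64 were called without HFD 3, and 11 of them without Trp 2. Fos, for example, had an adjusted p of 0.000264 without HFD 3 and of 0.126 without Trp 2, with log2 fold changes of -1.78 and -1.57.

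**Figure D5:**
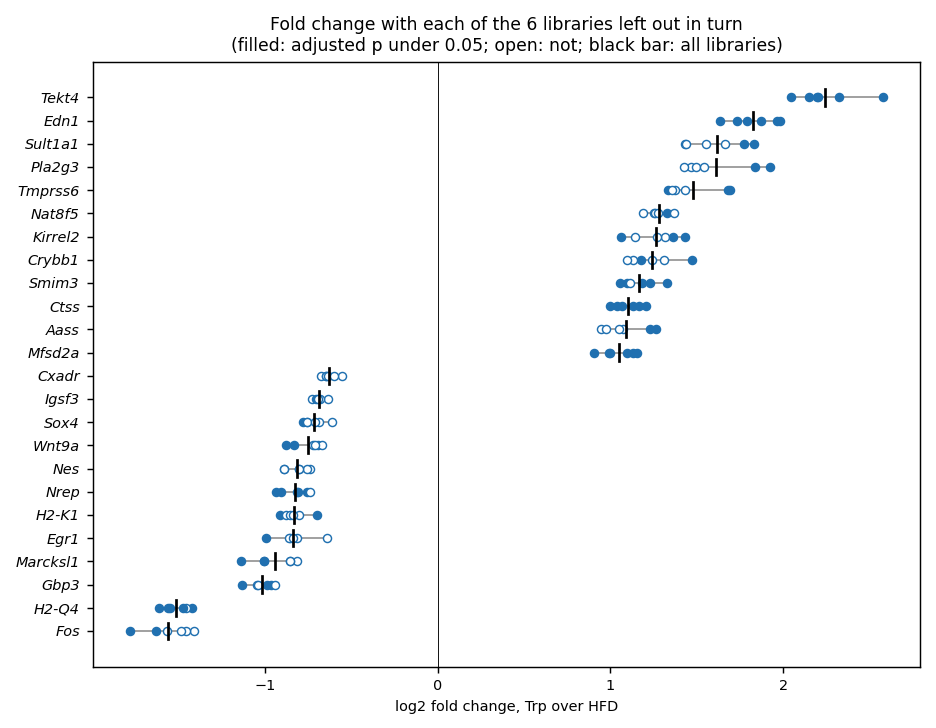
Log2 fold change of Trp over HFD (horizontal axis) for the 24 genes named in full, refitted with each of the 6 libraries left out; filled circles are fits with an adjusted p under 0.05, open circles the others, and the black bar is the fit of all libraries. No circle crosses 0, and all 6 are filled for Tekt4, Edn1, Ctss and Mfsd2a.

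The authors' deposited table gives its own comparison of these groups for 15337 genes, with 48 genes called up and 17 down. All of these had a q under 0.05 and a change beyond 2-fold. Of these 65 genes, 22 were also called here, which is 33.8% of theirs and 34.4% of the 64. No gene called in both had opposite directions. Of the 42 other genes called here, 36 changed by less than 2-fold and 6 were not tested in the authors' deposited table. A q under 0.05 in the authors' deposited table was given for 58 of the 64. Among the 43 genes called there and not here were Plin4, Xdh, Arrdc2 and the glucocorticoid receptor co-chaperone gene Fkbp5, with adjusted p of 0.0638, 0.103, 0.139 and 0.164 in the edgeR fit. Another was the predicted gene Gm45062, which has the smallest q of their calls. In the edgeR fit it had a log2 fold change of 13.3 and an adjusted p of 0.487.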

How the data were processed

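Per the labels' protocols, libraries were made from bead-selected polyadenylated RNA by random priming, second strand synthesis, adapter ligation and PCR, and no step that marks the strand is mentioned. StringTie 2.1.3b and the build mm10 are named by the submitters' processing notes. Aligner, counter, annotation release and strand setting: not given in the sources used here. The authors deposited 1 table with raw counts and FPKM per gene and library, per the file headers. The authors also deposited log2 fold changes, p-values and q-values of their own comparisons. Columns were matched to samples by the names in the labels, and 0 were left over.

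Counts were tested with edgeR 4.0.16 in R 4.3.3. Of 54513 genes, filterByExpr with a minimum count of 10 kept 18690. A robust quasi-likelihood model after TMM scaling, with 1 mean per group, was fitted to all 9 libraries, and p-values were two-sided and adjusted by Benjamini and Hochberg over all genes tested. The standard error is the log2 fold change over the root of F. Alternatives were DESeq2 1.42.0, RLE scaling, no filter, a mean FPKM of at least 5, limma 3.58.1 on log2(FPKM + 0.5) and log2(FPKM + 0.1), only the 6 libraries, a replicate block, and leaving out each of the 6. Replicates are separate samples by their labels. The p-values set the group difference against a spread between replicates that was estimated over all 9 libraries and moderated across genes.

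The comparison, the 38 gene lists (969 genes, 895 tested) and the naming rule were chosen with earlier results of these data known, so the lists are descriptions. Named with every library were the 12 higher and 12 lower called genes with the largest fold change, a mean FPKM of at least 1 and established symbols, and more briefly the other called genes, list members with the smallest p and 15 genes of the study's question. Of the called genes, 1 is not reported here by name. Gper1 and Apol7a, under that FPKM, were added after their values were seen. On simulated counts with 200 changed genes (18430 run), the test recovered 26.9% of changes by 1.5-fold, 54.5% of those by 2-fold and 79.1% of those by 4-fold, with 11 false among 118 calls.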

Additional observations from a re-analysis of the deposited data

How the results depend on the processing

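All 64 calls kept their direction wherever they were tested, but their number depended on the fit. Against 40 higher, 24 lower and 29 list genes called with all 9 libraries, DESeq2 called 175, 134 and 78, and the 6 libraries alone 5, 3 and 7. A mean FPKM of at least 5 left 21 higher and 9 lower. Without a filter 38 were lower, and limma on log2 FPKM called 6 lower with a pseudocount of 0.5 and 5 with 0.1. The replicate block called 18 higher, 5 lower and 13 list genes. The labels do not say whether the numbers pair the samples. Deviations of same-numbered libraries correlated at -0.196 to 0.048, which with 3 libraries per group cannot decide it. Leaving out 1 library gave 9 to 165 higher, 4 to 158 lower and 10 to 64 list genes, lowest without Trp 2 (4 lower also without Trp 1) and highest without HFD 3. With 3 libraries per group, changes of 1.5-fold are mostly missed, and the spread of Ffar3 within groups leaves its interval wide.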
